A study of Mus musculus with 8 samples.

Results

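*Maged1*, *Maged2*, *Mageh1* and *Magee1* are 4 X-linked genes of the melanoma antigen (MAGE) family, and they were followed by name through the allele-resolved RNA-seq tables, which list 24542 gene symbols in each of 8 samples. The cells were TX1072, a female mouse embryonic stem cell (ESC) line with 1 X chromosome from C57BL/6 (B6) and 1 from CAST/EiJ (Cast), in which every group carried a doxycycline (DOX)-inducible promoter in front of *Xist* on the B6 X. The 4 groups were wild type cells (*Hdac3+/+*) and cells lacking histone deacetylase 3 (*Hdac3-/-*), each taken before induction (0 hr) and 24 hr into treatment with 1 ug/ml of DOX, in ESC medium with serum, LIF and 2 inhibitors, with 2 samples per group. The mutant samples came from separate clones according to the study's methods, although the labels do not say which clone is which, and the wild type samples were duplicates of a single line, so p-values measure only the spread between these samples. The question addressed by the design is how far genes on the B6 X are silenced by *Xist* RNA when HDAC3 is missing.

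MAGE proteins share the MAGE homology domain, through which they bind RING-type E3 ubiquitin ligases and steer their activity. Type I members, such as the *Magea* and *Mageb* clusters on the X, are largely restricted to germ cells and tumours and are repressed in most other cells. Type II members, to which the 4 genes belong, are transcribed in many tissues, and as X-linked genes they are subject to dosage compensation, in which *Xist* RNA coats 1 X chromosome of a female cell and histone deacetylation, Polycomb marks and DNA methylation accompany its silencing.

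Between 6940375 and 17125156 reads fell on genes per sample, of which 30.1 to 31.6% could be given to an allele. *Hdac3* stood at 39.4 to 43.4 CPM (reads of a gene in 1000000 reads on genes) in the *Hdac3+/+* samples and at 5.54 to 7.22 CPM in the *Hdac3-/-* samples, and *Xist* stood at 7.25 to 17.11 CPM at 0 hr and at 1534 to 2050 CPM at 24 hr, with 98.8 to 99.3% of its allelic reads from B6. The d-score is the share of a gene's allelic reads that come from the B6 allele, so that 0.5 means equal output and lower values mean less RNA from the X that makes *Xist*. The median d-score of X-linked genes was 0.481 to 0.503 at 0 hr, then 0.278 and 0.286 with DOX in *Hdac3+/+* but 0.395 and 0.404 with DOX in *Hdac3-/-*. Markers of ESCs summed to 4279 to 5000 CPM in every sample and markers of differentiated lineages to 58.8 to 125 CPM, with *T* or *Pou3f1* the highest single gene.

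The promoters of the 4 genes are shown because they differ in how many CG dinucleotides, the sites of DNA methylation, they hold. *Maged1* lies on the minus strand at chrX:94535474-94542143, *Magee1* on the plus strand at chrX:105120378-105123927, *Maged2* on the minus strand at chrX:150806370-150814345 and *Mageh1* on the minus strand at chrX:153036166-153037575 (GRCm38, GENCODE M21). Relative to the lowest coordinate of *Xist*, *Maged1* lies at -8.92 Mb, *Magee1* at 1.66 Mb, and *Maged2* and *Mageh1* at 47.3 and 49.6 Mb, where negative is towards the centromere. The stretches below end at the base before the outermost annotated start, are written 5′ to 3′ on the gene's strand from RefSeq (GRCm38.p6), and have each CG in capitals: chrX:94542144-94542275 for *Maged1*, chrX:150814346-150814595 for *Maged2*, chrX:153037576-153037813 for *Mageh1* and chrX:105120128-105120377 for *Magee1*.
Maged1: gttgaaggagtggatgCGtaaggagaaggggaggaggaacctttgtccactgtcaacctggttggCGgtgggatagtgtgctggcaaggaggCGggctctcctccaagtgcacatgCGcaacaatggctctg
Maged2: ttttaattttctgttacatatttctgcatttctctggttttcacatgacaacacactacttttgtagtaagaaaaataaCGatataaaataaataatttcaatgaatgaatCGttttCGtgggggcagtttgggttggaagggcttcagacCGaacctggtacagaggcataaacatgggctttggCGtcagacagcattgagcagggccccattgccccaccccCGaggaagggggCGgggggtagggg
Mageh1: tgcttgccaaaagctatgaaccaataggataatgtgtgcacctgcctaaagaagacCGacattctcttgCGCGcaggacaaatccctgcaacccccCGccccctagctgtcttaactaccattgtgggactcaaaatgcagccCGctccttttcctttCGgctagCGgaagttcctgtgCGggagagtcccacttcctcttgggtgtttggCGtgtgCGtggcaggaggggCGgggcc
Magee1: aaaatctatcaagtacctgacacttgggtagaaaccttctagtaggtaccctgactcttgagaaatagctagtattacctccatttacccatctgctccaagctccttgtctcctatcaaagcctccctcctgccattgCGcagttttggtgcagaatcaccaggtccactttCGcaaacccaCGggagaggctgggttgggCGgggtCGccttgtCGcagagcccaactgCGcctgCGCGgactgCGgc
These stretches hold 4, 7, 11 and 10 CG. In the windows from 250 bases before to 50 bases after the RefSeq start, *Maged1* had 20 CG, *Mageh1* 18, *Magee1* 14 and the 4 listed *Maged2* starts 8, 9, 19 and 19, against a median of 7 over 32851 mouse promoters and of 7 over the 1223 X-linked ones. The *Mageh1* stretch also covers the start of 9530051G07Rik, a non-coding gene on the opposite strand whose start faces that of *Mageh1*.

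A further motif, looked for only after the sequences had been read, was the palindrome CGCATGCG, in capitals in the 30-base sites that follow, since it occurs in the windows of *Maged1* and, at 2 of its starts, *Maged2*. The sites are chrX:94542068-94542097 for *Maged1* and chrX:150813158-150813187 and chrX:150813006-150813035 for *Maged2*, all on the minus strand.
Maged1: gtgatctgctgCGCATGCGcggcgcgtcca
Maged2, first site: cgtggacattgCGCATGCGctttatgtata
Maged2, other site: tgcagaagacgCGCATGCGcactctaagcc
The same 8 letters occur in 615 of all 32851 promoter windows (1.87%) and in 25 of the 1223 on the X (2.04%), and they were not found in the *Mageh1* and *Magee1* windows. A match in letters is a description of these windows and not a mapped site.

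The 4 genes covered a wide range of RNA levels before DOX. In TPM (reads per length, scaled to 1000000 in each sample) the *Hdac3+/+* cells held 311 ± 22.4 of *Maged1* (SD, n = 2), 29.2 ± 0.00943 of *Maged2*, 19.7 ± 2.59 of *Mageh1* and 5.36 ± 0.409 of *Magee1*. This order placed *Maged1* above 98.1% of all genes in the tables and *Magee1* above 58.5%, and neighbours in the order differed by more than their SDs. The order was also kept in *Hdac3-/-* at 0 hr, with 239.5 ± 3.58, 29.3 ± 2.52, 11.4 ± 3.56 and 4.29 ± 0.390 TPM. At 24 hr in *Hdac3+/+* the levels were 182 ± 11.2, 11.8 ± 2.20, 9.79 ± 2.22 and 2.81 ± 0.369 TPM, where *Maged2* and *Mageh1* differed by less than their SDs. In *Hdac3-/-* at 24 hr they were 164 ± 13.7, 15.3 ± 4.35, 7.84 ± 1.42 and 3.75 ± 0.199 TPM. The level and the number of informative bases set how well each gene's alleles could be told apart: *Maged1* had 211 to 681 allelic reads per sample, *Maged2* 30 to 228, *Mageh1* 14 to 65 and *Magee1* 4 to 25, and only *Magee1* fell under the 10 reads that the deposited tables require for a d-score, in 3 of 8 samples. It was therefore absent from the main allelic test, which held 9595 genes, 301 of them X-linked apart from *Xist*.

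*Maged1* encodes an adaptor protein, also called NRAGE, that binds the neurotrophin receptor NGFR, the netrin receptor UNC5A and the apoptosis inhibitor XIAP. Its d-scores before DOX were 0.508 (exact 95% binomial interval 0.469 to 0.547) and 0.464 (0.423 to 0.505) in *Hdac3+/+* and 0.526 (0.487 to 0.564) and 0.480 (0.434 to 0.526) in *Hdac3-/-*. After 24 hr of DOX they were 0.202 (0.158 to 0.252) and 0.213 (0.160 to 0.275) in *Hdac3+/+*, and 0.310 (0.260 to 0.363) and 0.260 (0.210 to 0.315) in *Hdac3-/-*. Every DOX sample lay below every 0 hr sample, and both mutant DOX samples lay above both wild type ones. How many other genes separate in this way was not counted, here or below, so all such separations are a description only. These intervals, like the others given for single samples, cover counting error only, since reads are not independent molecules. In the fit of B6 against Cast reads, the B6:Cast ratio fell by 1.86 on the log2 scale in *Hdac3+/+* (SE 0.191, 3.63-fold, adjusted p = 7.92e-06, edgeR's quasi-likelihood test with Benjamini-Hochberg adjustment over all 9595 genes). In *Hdac3-/-* it fell by 1.34 (SE 0.179, 2.54-fold, edgeR adjusted p = 0.000775). A bulk sample cannot tell fewer cells with a silenced X from a smaller fall in each cell, and this holds for every ratio given here. In its chromatin experiments the study reports some cells with a single X (XO) in a mutant sample, whose d-scores it adjusted. The ratios given here carry no such adjustment, and whether the RNA samples held XO cells was not tested.

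*Maged2* encodes a relative of *Maged1* that is best known from the kidney, where loss of the human gene causes a transient antenatal form of Bartter syndrome through salt transporters that fail to reach the cell surface. Its d-scores were 0.600 (0.517 to 0.679) and 0.474 (0.392 to 0.556) in *Hdac3+/+* and 0.509 (0.442 to 0.575) and 0.459 (0.373 to 0.547) in *Hdac3-/-* at 0 hr. After DOX they were 0.100 (0.0376 to 0.205) and 0.133 (0.0376 to 0.307) in *Hdac3+/+*, from 6 of 60 and 4 of 30 allelic reads, and 0.182 (0.108 to 0.278) and 0.113 (0.0427 to 0.230) in *Hdac3-/-*, from 16 of 88 and 6 of 53. All 4 DOX samples lay far below all 0 hr samples, while the DOX samples of the genotypes overlapped. The B6:Cast ratio changed by -3.18 on the log2 scale in *Hdac3+/+* (SE 0.469, 9.09-fold, edgeR adjusted p = 0.000428) and by -2.36 in *Hdac3-/-* (SE 0.386, 5.15-fold, edgeR adjusted p = 0.00517). The change was -2.89 with an adjusted p of 0.109 without *Hdac3+/+* 24 hr replicate 1, and in the mutant it was -2.09 with an adjusted p of 0.0543 without *Hdac3-/-* 24 hr replicate 2, so the calls but not the directions were lost. A small nucleolar RNA gene, Gm24907, lies within *Maged2*.

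*Mageh1* encodes one of the smallest MAGE proteins, consisting of little more than the MAGE homology domain. Its d-scores at 0 hr were 0.508 (0.381 to 0.634) and 0.400 (0.264 to 0.548) in *Hdac3+/+* and 0.604 (0.460 to 0.735) and 0.524 (0.298 to 0.743) in *Hdac3-/-*. After DOX they were 0.208 (0.0713 to 0.422) and 0.0714 (0.00181 to 0.339) in *Hdac3+/+*, from 5 of 24 and 1 of 14 reads, and 0.0625 (0.00158 to 0.302) and 0.150 (0.0321 to 0.379) in *Hdac3-/-*, from 1 of 16 and 3 of 20. The DOX samples again lay below all 0 hr samples and the genotypes overlapped. The ratio changed by -2.16 on the log2 scale in *Hdac3+/+* (95% interval -3.59 to -0.73, edgeR adjusted p = 0.247) and by -3.38 in *Hdac3-/-* (-4.96 to -1.80, edgeR adjusted p = 0.0664), so neither passed over all genes, and both passed when p was adjusted over the 301 X-linked genes, at 0.00884 and 0.00218. In that adjustment 75.1% of X-linked genes passed as lower in *Hdac3+/+* and 39.5% in *Hdac3-/-*.

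*Magee1*, an intronless gene, encodes a protein with 2 MAGE domains, also called DAMAGE, that binds alpha-dystrobrevin of the dystrophin complex in muscle and brain. In *Hdac3+/+* it had 10 B6 and 5 Cast reads in one 0 hr sample and 5 B6 and 11 Cast reads in the other, then 1 and 6, and 0 and 4, after DOX. In *Hdac3-/-* there were 9 B6 and 16 Cast reads, and 3 and 6, before DOX, then 3 and 9, and 3 and 7, after it. Only 1 of 11 allelic reads came from B6 in *Hdac3+/+* at 24 hr, but the intervals of single samples overlapped throughout, for example 0.110 to 0.587 at 0 hr and 0.00361 to 0.579 at 24 hr. With no minimum of reads the ratio changed by -3.03 on the log2 scale in *Hdac3+/+* (95% interval -5.96 to -0.11, edgeR unadjusted p = 0.0420 and adjusted p = 1) and by -0.51 in *Hdac3-/-* (-2.62 to 1.59, edgeR unadjusted p = 0.632 and adjusted p = 1). Its B6 level alone changed by -3.12 in *Hdac3+/+* (-5.59 to -0.65, edgeR unadjusted p = 0.0134 and adjusted p = 0.473), so neither passed over all genes.

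**Figure D1:**
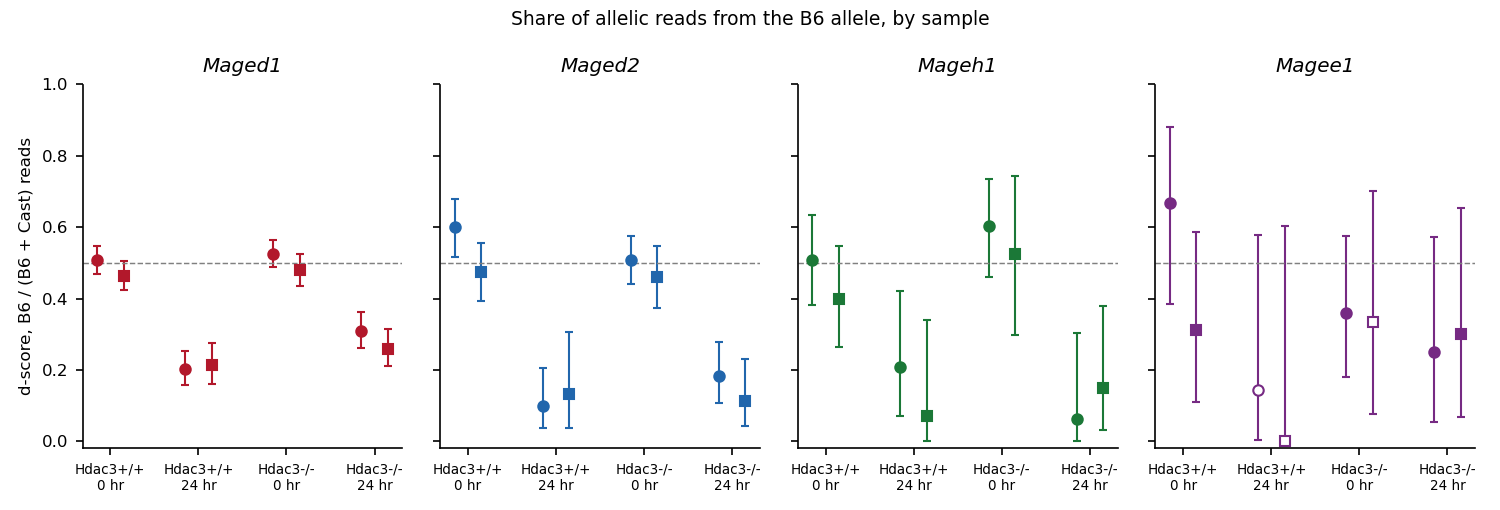
d-score, the B6 share of allelic reads, of each gene in each of the 8 samples. Circles are replicate 1 and squares replicate 2, bars are exact 95% binomial intervals, open markers have under 10 allelic reads and the dashed line is 0.5. *Maged1*, *Maged2* and *Mageh1* lay lower in every 24 hr sample than in every 0 hr sample, while the wide bars of *Magee1* overlapped. How many other X-linked genes separate so was not counted.

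Both *Maged1* and *Maged2* thus passed as lower in both genotypes, among 301 X-linked genes of which 49.5% passed in *Hdac3+/+* and 12.6% in *Hdac3-/-*, and among all 9595 genes of which 1.59% passed as lower in *Hdac3+/+*. The median X-linked change was -1.32 in *Hdac3+/+* and -0.57 in *Hdac3-/-* on the log2 scale. Ranked over the 301 genes, 86 fell more than *Maged1*, 13 more than *Maged2* and 55 more than *Mageh1* in *Hdac3+/+*. In *Hdac3-/-*, 45 had a lower value than *Maged1*, 7 than *Maged2* and 0 than *Mageh1*. Before DOX the genotypes differed in B6:Cast ratio by 0.10, -0.28 and 0.69 (*Hdac3-/-* minus *Hdac3+/+*, log2) for *Maged1*, *Maged2* and *Mageh1*, with edgeR adjusted p of 0.907, 0.850 and 0.772, and 0.997% of X-linked genes passed in that comparison. At an unadjusted edgeR p under 0.05, and by DESeq2 and limma, 0 of the 3 genes differed there, against 24, 1 and 0 of the 301 X-linked genes.

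**Figure D2:**
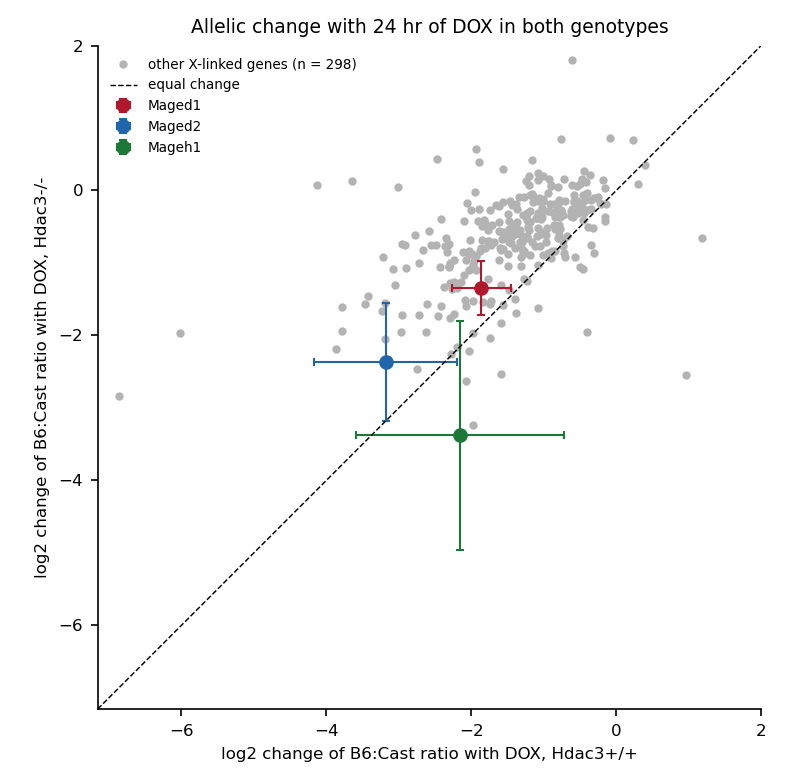
Log2 change of the B6:Cast ratio with 24 hr of DOX in *Hdac3+/+* (x axis) and *Hdac3-/-* (y axis) for 3 MAGE genes (coloured, bars are 95% intervals of the fit) and the 298 other X-linked genes tested (grey). The dashed line marks equal change: *Maged1* and *Maged2* lie above it at -1.86 and -1.34, and -3.18 and -2.36, *Mageh1* lies below it at -2.16 and -3.38, and the 95% interval of the difference between genotypes includes 0 for all 3.

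Whether the fall with DOX differed between genotypes was tested as an interaction, in which a positive value is a smaller fall in *Hdac3-/-*. It was 0.51 for *Maged1* (95% interval -0.05 to 1.08), 0.82 for *Maged2* (-0.59 to 2.22) and -1.22 for *Mageh1* (-3.55 to 1.10), all at an edgeR adjusted p of 1. Thus 0 of the 3 genes passed in this fit of the ratio, while 6.64% of X-linked genes passed as higher over all genes. When adjusted over X-linked genes alone 31.6% passed, and the 3 genes had edgeR adjusted p of 0.147, 0.369 and 0.423. At an unadjusted edgeR p under 0.05 there were 0 of the 3 genes but 133 of the 301 X-linked genes. DESeq2 and limma on the d-score called 0 of the 3, but only 3 and 0 of the 301, so these tools could hardly call any. The median interaction of the 301 X-linked genes was 0.73, which lies inside all 3 intervals, and 0 also lies inside all 3. *Maged1*, with the most reads of the 4, gives the narrowest interval. Of the 63 X-linked genes with at least 200 allelic reads in every sample, 15 passed for the interaction, their median was 0.72 (quartiles 0.40 and 1.06), and *Maged1* stood at rank 23 from the lowest. In the same 63 genes its change ranked 13 from the lowest in *Hdac3+/+* and 5 in *Hdac3-/-*. Compared directly at 24 hr, the *Maged1* ratio was higher in *Hdac3-/-* by 0.62 (log2, edgeR adjusted p = 0.288, and 0.0302 adjusted over X-linked genes). This was close to the X-linked median of 0.67, with 137 of the 301 genes lower than *Maged1*. Over all genes, 51 of the 301 passed as higher in this comparison.

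The same reads were also put on the scale used by the study, a d-score at 24 hr divided by that at 0 hr and set to 0.5 where nothing changed. Each 24 hr sample was divided by the 0 hr sample of the same replicate number, a pairing that the labels do not state, so the SDs of this scale depend on it. In *Hdac3+/+* and *Hdac3-/-* it was 0.214 ± 0.022 and 0.283 ± 0.017 for *Maged1* (SD, n = 2), 0.112 ± 0.041 and 0.151 ± 0.039 for *Maged2*, and 0.147 ± 0.082 and 0.0975 ± 0.065 for *Mageh1*. The difference between genotypes exceeded both SDs for *Maged1* and was under the SD for *Maged2* and *Mageh1*. As a share of the wild type fall that is missing in the mutant, where 0 is a fall as in wild type and 1 is none, *Maged1* stood at 0.240, *Maged2* at 0.100 and *Mageh1* at -0.141. For comparison, 199 X-linked genes were kept by the study's rule, which drops genes unstable between replicates and genes that escape silencing in wild type. The rule was applied here to genes with at least 10 allelic reads in all 8 samples. The set therefore differs in size from the study's own, whose gene classes were not used. Their median was 0.552 with quartiles of 0.335 and 0.721, and 31, 16 and 3 of them lay below *Maged1*, *Maged2* and *Mageh1*. With each mutant replicate set against the wild type mean, the values were 0.282 and 0.198, 0.172 and 0.0289, and -0.271 and -0.0115, all under the lower quartile. This scale has no test here, and it divides by the wild type fall, which was large in these genes.

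Allele by allele, *Maged1* B6 reads went from 25.8 and 22.8 CPM to 6.08 and 6.48 CPM with DOX in *Hdac3+/+*, and from 20.9 and 18.7 CPM to 8.97 and 7.19 CPM in *Hdac3-/-*. Its Cast reads stood at 24.9 and 26.3, then 24.0 and 23.9 CPM in *Hdac3+/+*, and ranged from 18.9 to 20.5 CPM over the 4 samples of *Hdac3-/-*. The loss was thus on the B6 allele, and the Cast values at 24 hr lay within or close to those at 0 hr. *Maged2* B6 reads went from 6.99 and 6.07 to 0.608 and 0.576 CPM in *Hdac3+/+* and from 6.77 and 5.14 to 1.41 and 0.591 CPM in *Hdac3-/-*. Its Cast reads went from 4.66 and 6.75 to 5.47 and 3.75 CPM, and from 6.54 and 6.06 to 6.33 and 4.63 CPM, with overlap in both genotypes. *Mageh1* B6 reads fell from 2.56 and 1.69 to 0.506 and 0.144 CPM and from 1.87 and 0.912 to 0.0879 and 0.296 CPM. Its Cast reads went from 2.49 and 2.53 to 1.92 and 1.87 CPM in *Hdac3+/+*. In *Hdac3-/-* they went the other way, from 1.23 and 0.829 to 1.32 and 1.68 CPM.

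In a fit of B6 reads alone, *Maged1* changed by -1.94 in *Hdac3+/+* and -1.30 in *Hdac3-/-* on the log2 scale (edgeR adjusted p = 1.38e-05 and 0.00130) and *Maged2* by -3.42 and -2.56 (edgeR adjusted p = 0.000124 and 0.00205), and the *Maged2* calls were kept when each library in turn was left out (highest adjusted p 0.0150 and 0.0246). *Mageh1* changed by -2.54 and -2.89 and did not pass (edgeR adjusted p = 0.0582 and 0.171). The background in this fit was 58.5% of X-linked genes lower in *Hdac3+/+* and 11.6% in *Hdac3-/-*, with medians of -1.36 and -0.52. The interaction in B6 reads was 0.64 for *Maged1*, with a 95% interval of 0.12 to 1.15 that leaves out 0, at an unadjusted p of 0.0188 (edgeR adjusted p = 1, and 0.0544 over X-linked genes), 0.86 for *Maged2* (-0.42 to 2.13) and -0.35 for *Mageh1* (-2.53 to 1.84). In a fit of Cast reads alone the changes with DOX were -0.08, -0.27 and -0.38 in *Hdac3+/+* and 0.04, -0.21 and 0.49 in *Hdac3-/-* for *Maged1*, *Maged2* and *Mageh1*. By edgeR's quasi-likelihood test 0 of the 3 passed in either genotype, as did 0 at an unadjusted p under 0.05 and 0 by DESeq2. Among the 301 X-linked genes the Cast change passed in 0.0% in *Hdac3+/+* and 0.0% in *Hdac3-/-*, with 20 and 15 at an unadjusted p under 0.05 and 1 and 0 called by DESeq2. The interaction in Cast reads was 0.12 for *Maged1*, 0.05 for *Maged2* and 0.87 for *Mageh1* (95% interval -0.24 to 1.98). For *Mageh1*, 297 of the 301 genes had a lower value in Cast reads and 6 had a lower value in B6 reads. The X-linked medians of these interactions were 0.03 in Cast and 0.80 in B6 reads. Both *Mageh1* intervals include 0, so the share of each allele in its negative ratio interaction cannot be told. Between genotypes at 0 hr, the Cast level of *Mageh1* was lower in *Hdac3-/-* by 1.19 on the log2 scale (SE 0.342, edgeR adjusted p = 0.0590), its Cast reads being 2.49 and 2.53 CPM in *Hdac3+/+* and 1.23 and 0.829 CPM in *Hdac3-/-*.

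In all reads, with or without an allele, *Maged1* stood at 386 and 361 CPM in *Hdac3+/+* at 0 hr and at 230 and 217 CPM after DOX, a fall of 0.72 on the log2 scale (SE 0.078, edgeR adjusted p = 0.0160). In *Hdac3-/-* it went from 292 and 288 to 207 and 186 CPM, a change of -0.59 (SE 0.078, edgeR adjusted p = 0.0848). The DOX samples lay below the 0 hr samples in both genotypes. *Maged2* went from 25.6 and 26.6 to 12.0 and 9.51 CPM in *Hdac3+/+* (-1.25, SE 0.204, edgeR adjusted p = 0.0591) and from 27.9 and 24.9 to 16.3 and 10.9 CPM in *Hdac3-/-* (-0.98, SE 0.195, edgeR adjusted p = 0.534). *Mageh1* went from 8.24 and 7.08 to 4.46 and 3.31 CPM (-0.95, SE 0.301, edgeR adjusted p = 0.431) and from 5.43 and 3.48 to 2.64 and 3.45 CPM (-0.59, SE 0.306, edgeR adjusted p = 1). *Magee1* went from 5.44 and 5.06 to 3.04 and 2.59 CPM (-0.87, SE 0.255, edgeR adjusted p = 0.362) and from 4.50 and 3.98 to 3.78 and 3.55 CPM (-0.23, SE 0.243, edgeR adjusted p = 1). No 24 hr sample of any of the 4 genes reached its 0 hr samples of the same genotype. For *Mageh1* in *Hdac3-/-* the nearest samples all but met, at 3.45 and 3.48 CPM from 35 and 42 reads. How many other X-linked genes separate in this way was not counted, so the separation is a description only.

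Of the 4 genes, 1 passed as lower in *Hdac3+/+*, where 4.81% of 582 X-linked genes did, and 0 passed in *Hdac3-/-*, where 0.344% did. All 4 in *Hdac3+/+*, and *Maged1* and *Maged2* in *Hdac3-/-*, were lower at an unadjusted edgeR p under 0.05. So low a p was common, in 294 of the 582 X-linked genes in *Hdac3+/+* and 115 in *Hdac3-/-*. DESeq2 called *Maged1* and *Maged2* in *Hdac3+/+* and *Maged1* in *Hdac3-/-*, among 91 and 14 X-linked genes. With limma voom *Maged1* was called in *Hdac3+/+* only, where 11 X-linked genes were called, against 1 in *Hdac3-/-*. The call of *Maged1* in *Hdac3+/+* was lost when any 1 of the 4 wild type libraries was left out, with adjusted p up to 0.390, and *Maged2* passed there when each of the 4 mutant libraries in turn was left out, at 0.0144 to 0.0472. The median total change of X-linked genes was -0.54 in *Hdac3+/+* and -0.24 in *Hdac3-/-*, and the medians of the 4 genes were -0.91 and -0.59, against 0.0028 over all 13807 genes tested. The interaction of genotype and DOX in total reads was 0.14 (SE 0.110), 0.27 (SE 0.281), 0.36 (SE 0.431) and 0.64 (SE 0.353) for *Maged1*, *Maged2*, *Mageh1* and *Magee1*, all at an edgeR adjusted p of 1.00.

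**Figure D3:**
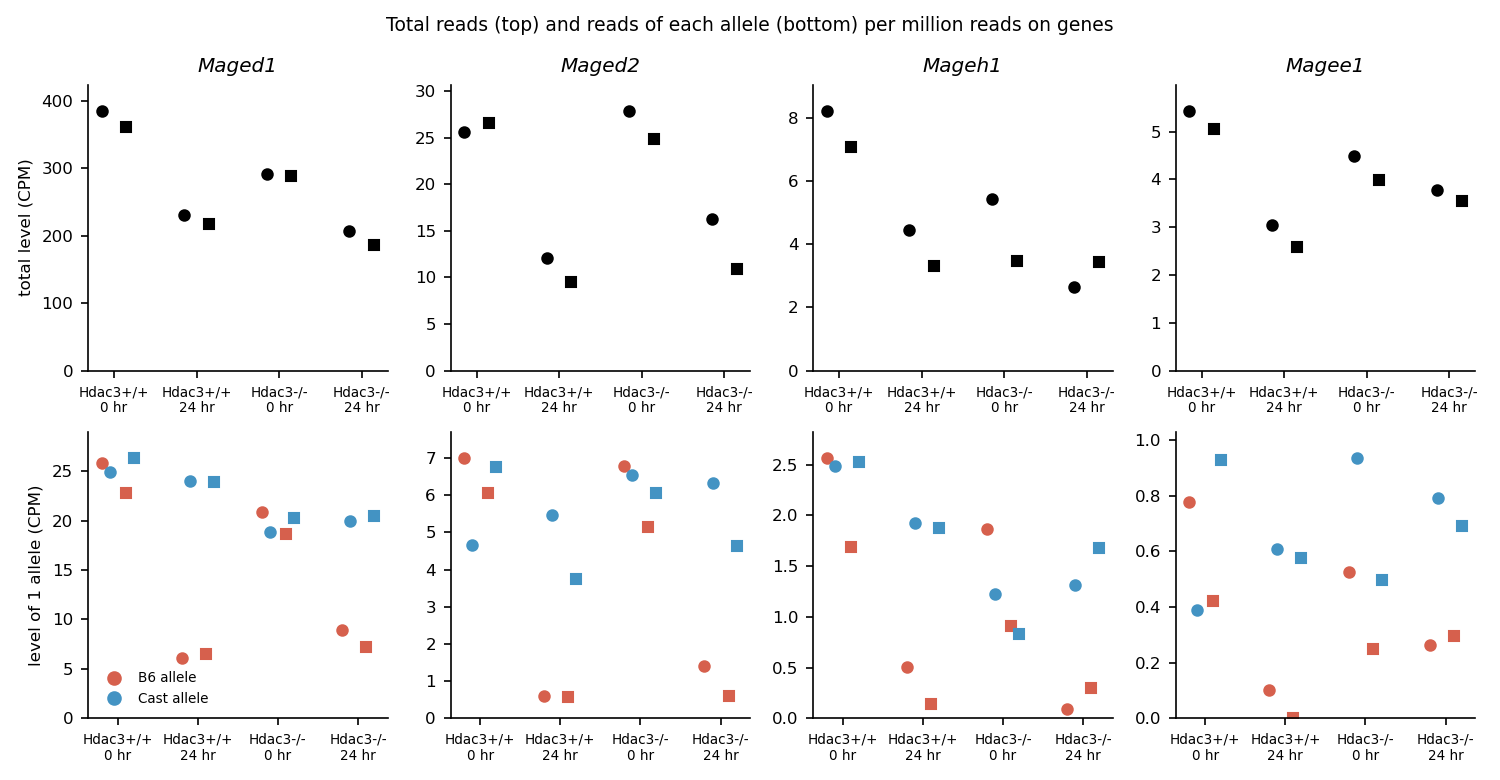
Level of each gene (CPM) in the 8 samples, for all reads (top) and for B6 (red) and Cast (blue) reads (bottom), each y axis starting at 0. Circles are replicate 1 and squares replicate 2. B6 levels of *Maged1* and *Maged2* dropped with DOX in both genotypes, for *Maged1* from 25.8 and 22.8 to 6.08 and 6.48 CPM in *Hdac3+/+*, while its Cast levels stayed between 18.9 and 26.3 CPM.

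Before DOX, when *Xist* was low, the total levels were compared between genotypes. *Xist* itself was then higher in *Hdac3-/-*, by 0.99 on the log2 scale (edgeR adjusted p = 0.0228). *Maged1* stood at 386 and 361 CPM in *Hdac3+/+* and at 292 and 288 CPM in *Hdac3-/-*, without overlap, a difference of -0.29 on the log2 scale (SE 0.084, edgeR adjusted p = 0.0609). *Mageh1* differed by -0.69 (SE 0.283, edgeR adjusted p = 0.151), *Magee1* by -0.23 (SE 0.261, edgeR adjusted p = 0.618) and *Maged2* by 0.10 (SE 0.142, edgeR adjusted p = 0.703). By edgeR 0 of the 4 passed, in a comparison where 6.33% of 13226 genes passed as higher and 7.24% as lower. An unadjusted edgeR p under 0.05 was seen in 2 (0.00931 for *Maged1* and 0.0419 for *Mageh1*) and in 3912 of the 13226 genes. DESeq2 and limma voom called 0 of the 4, and 105 and 107 of 553 X-linked genes. *Maged1* did pass in the fit with all 8 samples, at an adjusted p of 0.0374, and without *Hdac3-/-* 0 hr replicate 1 or 2, at 0.0388 and 0.0451, and *Mageh1* passed without *Hdac3-/-* 0 hr replicate 1, at 0.00959. The median of the 4 genes was -0.26, against 0.0028 over all genes tested.

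For each gene the 3 nearest X-linked genes on either side with at least 10 allelic reads in all samples were set beside it. For comparison, 49.5% of the 301 X-linked genes passed as lower in *Hdac3+/+* and 12.6% in *Hdac3-/-*. Around *Maged1*, within 885 kb, 1 of 6 neighbours passed in *Hdac3+/+* and 0 in *Hdac3-/-*, and their median changes were -1.60 and -0.70. Low read numbers limit this count, since *Klhl15*, *Spin4*, *Apoo* and *Gspt2* had as few as 14, 15, 21 and 32 allelic reads in a sample. *Klhl15* and *Spin4* stood at -2.35 and -1.98 in *Hdac3+/+*, below *Maged1*, and did not pass. *Eif2s3x*, which encodes a subunit of translation initiation factor eIF2 and is a known escape gene, changed by -0.41 and -0.04, while *Amer1*, a regulator of Wnt signalling, fell by 2.31 in *Hdac3+/+* (edgeR adjusted p = 0.000889) and stood at -0.74 in *Hdac3-/-*. Around *Maged2* the 6 neighbours, up to 5360 kb away, had medians of -1.88 and -0.89, and 3 passed in *Hdac3+/+* and 2 in *Hdac3-/-*. The nucleolar GTPase gene *Gnl3l*, 177 kb away, changed by -2.02 and -0.68 and *Fgd1*, a GTP exchange factor gene 239.8 kb away, by -2.11 and -0.85, and both genes passed in both genotypes and for the interaction (1.34 and 1.26, edgeR adjusted p = 0.00189 and 0.0339). *Apex2*, a DNA repair endonuclease gene, fell by 2.90 in *Hdac3+/+* (edgeR adjusted p = 0.000183) and stood at -1.06 in *Hdac3-/-*. The *Maged2* values of -3.18 and -2.36 lay below those of all 6 neighbours, of which the lowest were -2.90 and -2.04.

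Around *Mageh1*, within 699 kb, 5 of 6 neighbours passed in *Hdac3+/+* and 1 in *Hdac3-/-*, with medians of -2.38 and -0.82. That 1 was *Klf8*, a Krüppel-like transcription factor gene 201 kb away, at -3.19 and -2.05 (edgeR adjusted p = 3.42e-06 and 0.000818). *Rragb*, a Rag GTPase gene of amino acid sensing 104 kb away, stood at -6.85 and -2.84 and passed in *Hdac3+/+* only (edgeR adjusted p = 0.0181). The *Mageh1* value in *Hdac3-/-*, -3.38, lay below all 6, and in *Hdac3+/+* it lay among them. Around *Magee1*, within 895 kb, 3 of 6 neighbours passed in *Hdac3+/+* and 1 in *Hdac3-/-*, with medians of -1.96 and -0.38. *Atrx*, a chromatin remodeller gene, changed by -1.49 and -0.32 and passed in both genotypes and for the interaction (1.17, edgeR adjusted p = 6.58e-06), while *Zdhhc15* and *Magt1* changed by -3.43 and -2.42 in *Hdac3+/+* (edgeR adjusted p = 4.98e-05 and 0.000583). The difference between a MAGE gene and its neighbours was not tested.

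**Figure D4:**
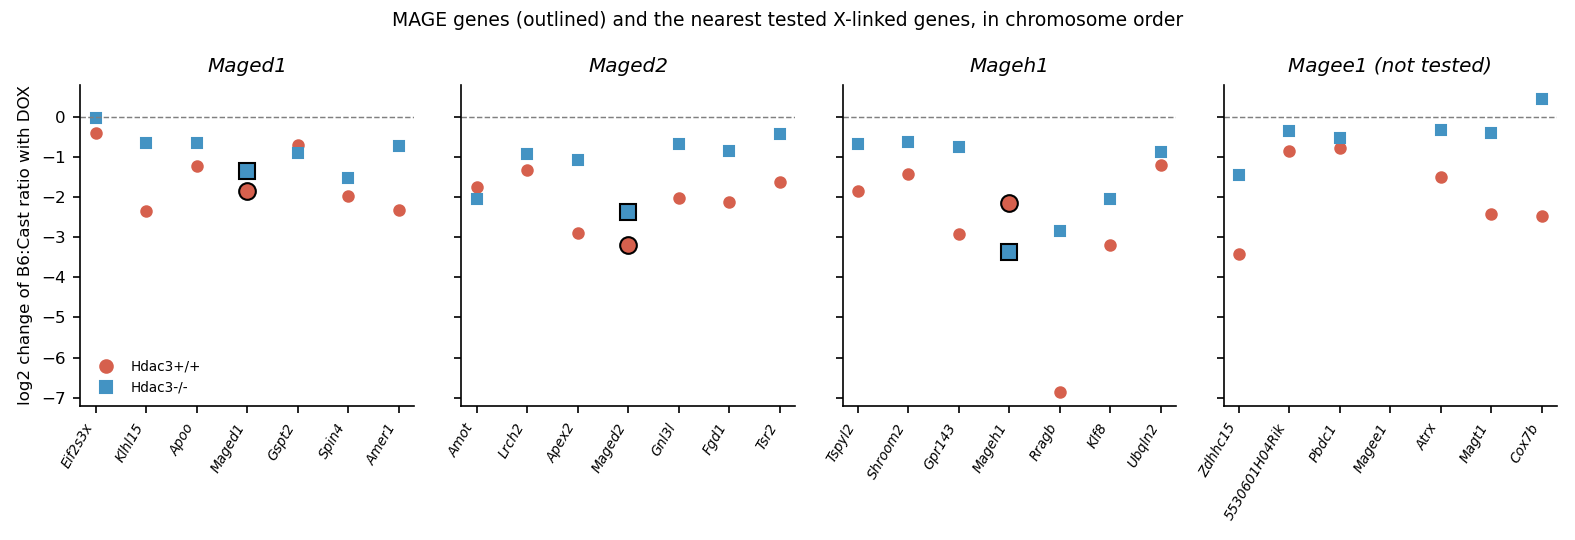
Log2 change of the B6:Cast ratio with DOX for each MAGE gene tested and its 6 nearest testable X-linked neighbours, in *Hdac3+/+* (red circles) and *Hdac3-/-* (blue squares), in chromosome order along the x axis with a dashed line at no change. Outlined symbols are the MAGE gene itself, and *Magee1* has none because it was not tested. *Maged2* (-3.18 and -2.36) lies below its 6 neighbours in both genotypes and *Mageh1* (-3.38) below its neighbours in *Hdac3-/-*.

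The X-linked genes with the most similar d-scores were found by the root mean square difference over the 8 samples, among those with at least 50 allelic reads in each, as a description of points that share their libraries. For *Maged1* they were *Pcyt1b* of phosphatidylcholine synthesis (0.0319), *Msn*, which encodes the membrane-actin linker moesin (0.0335), and the pyruvate dehydrogenase kinase gene *Pdk3* (0.0402), where the median over 173 genes was 0.106. *Msn*, with at least 578 allelic reads in every sample, changed by -2.30 in *Hdac3+/+* and -1.04 in *Hdac3-/-* on the log2 scale and passed for the interaction (1.27, edgeR adjusted p = 0.00755). For *Maged2* they were *Klf8* (0.0516), *Rlim*, which encodes an E3 ubiquitin ligase that promotes *Xist* expression (0.0525), and *Armcx1* (0.0581), where the median over 174 genes was 0.179. For *Mageh1* they were *Rlim* (0.0698), *Armcx1* (0.0833) and *Tceal9* (0.101), where the median was 0.200. *Rlim* changed by -2.75 and -2.46 (edgeR adjusted p = 4.27e-08 and 1.65e-07), with an interaction of 0.28 (edgeR adjusted p = 1).

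The rest of the MAGE family was followed through a list of 23 genes, 20 of which are in the tables. *Mageb1*, *Mageb2* and *Mageb5* had 0 reads in all 8 samples. In *Hdac3-/-* against *Hdac3+/+* at 0 hr, 13 passed the filter on low levels, of which 9 were over 1 TPM in all 4 samples. Of these 9, 3 passed as higher and 0 as lower, where 6.33% of all genes passed as higher and 7.24% as lower. The other 4, *Magea2*, *Magea3*, *Magea6* and *Mageb3*, passed the filter only with the help of the mutant samples, where they were higher, so their values are given as a description. *Mageb4*, a germline MAGE gene, stood at 2.72 and 4.39 CPM in *Hdac3+/+* and at 24.1 and 19.9 CPM in *Hdac3-/-*, higher by 2.71 on the log2 scale (SE 0.261, edgeR adjusted p = 0.00136). *Tro*, which encodes the type II member trophinin, known for adhesion of the embryo to the uterus, stood at 17.3 and 14.8 CPM and at 30.5 and 32.5 CPM, higher by 1.05 (SE 0.151, edgeR adjusted p = 0.00507). In both the groups did not overlap, and how many other genes separate so was not counted.

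*Magea5* stood at 0.622 and 1.01 CPM in *Hdac3+/+* and 2.51 and 6.22 CPM in *Hdac3-/-* at 0 hr (2.47, SE 0.559, edgeR adjusted p = 0.0265). *Magea3* had 0 and 0 reads against 7 and 27, at least 9.60-fold higher when a floor of 3 reads over the wild type group is used. The call of *Magea5* was lost in the fit with all 8 samples, with limma voom, and without either *Hdac3+/+* 0 hr library, at adjusted p of 0.0517 to 0.126. The *Magea* genes are near-identical copies, so how single reads were divided among them is uncertain. Their summed level over 8 genes was 2.098 and 2.95 CPM in *Hdac3+/+* and 7.30 and 26.0 CPM in *Hdac3-/-* at 0 hr, and 1.11 and 1.30 CPM against 8.26 and 22.5 CPM at 24 hr, replicate 2 of the mutant being the higher at both times. Of the other genes over 1 TPM in all 4 samples, *Ndn*, which encodes the imprinted growth suppressor necdin, was at -0.54 (edgeR adjusted p = 0.108), *Nsmce3*, a subunit gene of the SMC DNA repair complex, at 0.37 (edgeR adjusted p = 0.110), *Magee2* at -0.31, *Mageb16* at 0.08, *Magea8* at 2.46 (edgeR adjusted p = 0.0590) and *Magea4* at 1.20, and none passed. Among those let in by the mutant samples, *Magea2*, *Magea6* and *Mageb3* were at 3.58, 4.01 and 1.03.

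**Figure D5:**
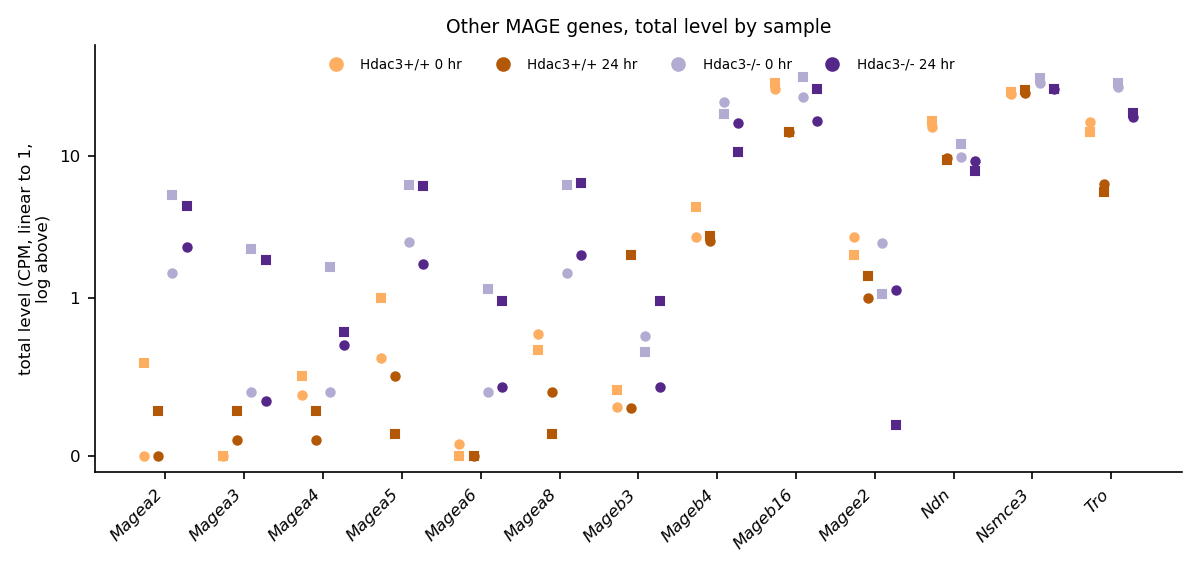
Total level (CPM) of the 13 other MAGE genes of the list tested at 0 hr, in the 8 samples (orange *Hdac3+/+*, purple *Hdac3-/-*, the darker shade 24 hr), on an axis that is linear to 1 CPM and logarithmic above. Circles are replicate 1 and squares replicate 2. *Mageb4* (2.72 and 4.39 against 24.1 and 19.9 CPM) and *Tro* (17.3 and 14.8 against 30.5 and 32.5 CPM) separate at 0 hr without overlap, and *Magea3* has 0 in *Hdac3+/+* at that time.

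With 24 hr of DOX, 15 of the other MAGE genes on the list were tested in total reads. In *Hdac3+/+* 0 rose and 1 fell, *Tro*, from 17.3 and 14.8 to 6.38 and 5.62 CPM (-1.39, edgeR adjusted p = 0.0199), and in *Hdac3-/-*, where it went to 19.0 and 20.1 CPM, its change was -0.71 and 0 genes of the list passed. Over all 13807 genes tested, 0.203% passed as lower in *Hdac3+/+* and 0.0217% in either direction in *Hdac3-/-*. *Tro* had too few allelic reads for the allelic test, with 2 B6 and 6 Cast, and 1 and 9, in *Hdac3+/+* at 24 hr. Only the autosomal *Nsmce3* had enough, and it did not pass (0.74 and 0.10). Before DOX, with both genotypes pooled, B6 gave 63 of 66 allelic reads of *Magee2*, 101 of 118 of *Mageb16*, 31 of 40 of *Magea5* and 37 of 55 of *Magea8*. It gave 130 of 255 in *Tro* and 15 of 48 in *Mageb4*. These pooled reads are a description and were not tested.

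Among 16 genes whose proteins bind MAGE proteins or sit in the same complexes, 14 were tested at 0 hr. Of the 13 that were over 1 TPM in all 4 samples, 1 passed as higher and 1 as lower in *Hdac3-/-*, against 6.33% and 7.24% of all genes. *Smc5*, a core gene of the SMC repair complex that NSMCE3 joins, was higher by 0.47 (edgeR adjusted p = 0.0160), and the dystrophin relative *Utrn* was lower, at -0.63 (edgeR adjusted p = 0.0226). The MAGEE1 partner alpha-dystrobrevin (*Dtna*) passed the filter only through its wild type samples, and its values are a description. *Dtna* stood at 11.4 and 8.18 CPM in *Hdac3+/+* and at 3.85 and 2.16 CPM in *Hdac3-/-*, and *Utrn* at 190 and 150 CPM against 114 and 93.4 CPM. The *Utrn* samples did not overlap between genotypes, and how many other genes separate so was not counted. For *Dtna* such a separation is partly built in by the filter and is not counted as a result. Of the X-linked partners, the d-scores of *Xiap* went from 0.562 and 0.511 to 0.275 and 0.289 with DOX in *Hdac3+/+* and from 0.535 and 0.496 to 0.403 and 0.350 in *Hdac3-/-*. Its ratio changed by -1.57 and -0.81 (edgeR adjusted p = 7.92e-06 and 0.0195). *Dmd*, the dystrophin gene, fell by 2.44 in *Hdac3+/+* (edgeR adjusted p = 0.00137) and stood at -1.06 in *Hdac3-/-* (edgeR adjusted p = 0.519), and the MAGED1-binding ligase gene *Pja1* stood at -2.09 and -1.51 and did not pass. Of the 14 partners with an allelic test, 2 thus passed as lower in *Hdac3+/+* and 1 in *Hdac3-/-*, all X-linked, against 49.5% and 12.6% of X-linked genes and 1.59% and 0.396% of all genes. In total reads *Xiap* alone of 15 passed in *Hdac3+/+* (-0.63, edgeR adjusted p = 0.0388), where 4.81% of X-linked and 0.203% of all genes passed as lower.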

How the data were processed

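RNA-seq was measured in 8 samples of TX1072 cells. As the study's methods state, the authors removed ribosomal RNA reads, aligned paired reads to mm10 with TopHat2 2.1.0 keeping 1 alignment per read, assigned reads to B6 or Cast at known variants, and counted them over exons, by strand, with featureCounts 1.5.1. The deposited tables hold raw counts per gene for all reads and for each allele, and the d-score as a fraction for genes with at least 10 allelic reads. CPM and TPM were computed here from these counts and GENCODE M21 exon lengths.

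Tests were fitted with edgeR 4.0.16 (R 4.3.3) by quasi-likelihood, with p adjusted by the Benjamini-Hochberg method over all genes tested and called under 0.05. The allelic fit took 16 columns, B6 and Cast of each sample, with an effect for each sample and a B6 term for each group, for the 9595 genes with at least 10 allelic reads in all 8 samples, leaving 4 residual degrees of freedom. Total reads were TMM-normalised for genes over 1 TPM in at least 2 samples, in the 4 samples at 0 hr for genotypes and in all 8 for DOX. The fits were checked on simulated data. DESeq2 1.42.0 and limma 3.58.1 served as alternatives, beside other filters, left-out libraries, a replicate block and other adjustments. An exact permutation test of 2 against 2 samples cannot go below p = 0.333 and was not used. Total reads per sample set the precision, and intervals for single samples are exact binomial ones at 95%. Of the gene symbols, 660 had no position and were left out of counts by chromosome, and no columns were left unused.

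The text names the 4 genes, the other MAGE genes of the list tested before DOX, and the 3 genes closest in d-score. It also names called partners, and *Pja1*, chosen after its values were seen. Of the 3 X-linked neighbours on each side only some are named, and the rest enter the counts and medians. *Magea1*, *Magea10* and *Magef1* were also tested in total reads, and their own values are not given. The members and lists were chosen with earlier results of these data known. Promoters came from RefSeq (GRCm38.p6) by symbol, and all 4 genes matched.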

Additional observations from a re-analysis of the deposited data

How the results depend on the processing

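Of 652 recomputed values, 391 that answer a comparison and 183 of single genes kept their direction and side of the threshold, or stayed close to the original count. All changes are log2 values with DOX, and the cause of a changed call was not tested. With p adjusted over X-linked genes only, a narrower set of tests by construction, the allelic change of *Mageh1* passed in *Hdac3+/+* (-2.16) and *Hdac3-/-* (-3.38), as did its B6 level (-2.54 and -2.89), total reads in *Hdac3+/+* of *Maged2* (-1.25), *Mageh1* (-0.95) and *Magee1* (-0.87), and total reads in *Hdac3-/-* of *Maged1* (-0.59) and *Maged2* (-0.98). X-linked genes called then numbered 226 lower in *Hdac3+/+*, 119 lower in *Hdac3-/-* and 95 with a smaller fall in the mutant, against 149, 38 and 20. With no minimum of allelic reads, *Mageh1* passed in *Hdac3-/-* (-3.38) and in B6 level (-2.55 and -2.88), and the counts for *Hdac3-/-* and the interaction were 63 and 38. With limma on the d-score, the fall in *Hdac3-/-* of *Maged1* (d-score difference -0.218) and *Maged2* (-0.337) no longer passed, and the 3 counts were 86, 0 and 0. DESeq2 gave 3 genes for the interaction and called total reads of *Maged2* in *Hdac3+/+* (-1.24) and *Maged1* in *Hdac3-/-* (-0.58). With no filter on low levels, *Maged2* (-1.24) in *Hdac3+/+*, *Maged1* (-0.59) and *Maged2* (-0.98) in *Hdac3-/-*, and *Maged1* between genotypes at 0 hr (-0.28) passed, as did the last in the fit with all 8 samples (-0.29).

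The samples share replicate numbers, but the labels do not say that a number marks a clone or day, so the tests did not treat the numbers as pairs, while the normalized d-scores, which carry no test, divide same-numbered samples. Deviations from group means of same-numbered samples correlated at 0.593 between the *Hdac3-/-* groups in log2 CPM, at 0.151 to 0.247 between other groups, and at -0.196 to 0.0531 in the X-linked B6:Cast ratio. A replicate block gave -3.28 for *Mageh1* in *Hdac3-/-* (-3.36 with the block within each genotype), -2.59 and -2.86 for its B6 level, and in total reads -1.26 for *Maged2* in *Hdac3+/+*, -0.59 for *Maged1* in *Hdac3-/-* and -0.29 for *Maged1* at 0 hr, all then past the threshold. The interaction count was 31 with the block and 59 with it within each genotype, where the *Hdac3-/-* count was 78. The block changed no other call of the 4 genes.

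With 1 library left out, the counts ranged from 81 (without *Hdac3+/+* 24 hr replicate 1) to 153 in *Hdac3+/+*, from 25 (without *Hdac3-/-* 24 hr replicate 2) to 42 in *Hdac3-/-*, and from 3 to 21 for the interaction. A group then left with 1 sample is assumed to vary like the others. The allelic change of *Maged2* ranged from -3.56 to -2.82 and from -2.88 to -2.09 in the 2 genotypes. Genotypes before DOX differed in ratio by -0.041 to 0.23 for *Maged1* and -0.66 to 0.080 for *Maged2*, and in total reads by -0.31 to -0.26 for *Maged1* and -1.05 to -0.42 for *Mageh1*. Total reads in *Hdac3+/+* changed by -0.76 to -0.68 for *Maged1* and -1.44 to -1.09 for *Maged2*, and the B6 level of *Mageh1* by -3.76 to -2.04. Uncalled values whose sign turned were the total interaction of *Maged2* (-0.038 to 0.51) and the Cast change of *Maged2* in *Hdac3+/+* (-0.57 to 0.036) and *Maged1* in *Hdac3-/-* (-0.024 to 0.095). The number of allelic reads, under 30 per sample for *Mageh1* after DOX and 4 to 12 for *Magee1*, limits what can be detected in these genes.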
